A study of Mus musculus with 43 samples.

Results

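Epididymal white fat of male mice was sequenced as bulk RNA in 43 libraries, and the libraries fell into an earlier-numbered and a later-numbered set that crossed every diet and dose group. Set 2 held the later library numbers and set 1 the earlier ones within each group. The division was drawn from these data: the share of counts in genes of small noncoding RNA (miRNA, snoRNA, snRNA, scaRNA and misc_RNA genes) is high in set 2 and low in set 1, and the labels do not mention a division. The comparison left out 4 libraries (3 of set 2 and 1 of set 1), for a reason not given here. Their small RNA shares lay on the side of their own set, at 0.0178% to 0.0228% in set 2 and 0.005465% in set 1. The remaining 39 libraries were compared, 18 of set 2 and 21 of set 1. What separated the handling of the 2 sets is not given in the sources used here, and they are called library sets throughout.

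The HFD group ate a diet with 60% fat and gave 5 set 2 and 5 set 1 libraries. The SZ-A groups ate the same 60% fat and received the mulberry twig alkaloid preparation SZ-A at 200, 400 or 600 mg per kg per day. SZ-A 200 gave 4 set 2 and 5 set 1 libraries, SZ-A 400 gave 2 of set 2 and 4 of set 1, and SZ-A 600 gave 3 of set 2 and 5 of set 1. The SD group ate 10% fat and gave 4 set 2 and 2 set 1 libraries. Per the labels every library was a separate biological sample, RNA had an integrity number above 7 and was selected for poly(A), and libraries were made strand-specific with dUTP. Neither strain nor age is given by the sources used here. Library totals ran from 33.4 M to 44.3 M counts (M, mega). No pair of libraries held identical counts, and the highest correlation of log2 CPM between 2 libraries was 0.9809. The mature adipocyte markers, among them Adipoq, Plin1 and Lep, summed to between 27520 and 92110 CPM (counts scaled to a common library total with TMM factors) in set 2 and between 30860 and 84740 CPM in set 1, so every library carried the defining genes of fat. Several libraries stood apart in markers or shares, among them 3 that were left out together: SZ-A 200 8 (set 2) in B cell genes, HFD 8 (set 2) in a mitochondrial share of 11.4% and, within HFD, the lowest macrophage sum (1194 CPM), and SD 1 (set 1) in genes of the epididymal duct, which summed to at most 9.65 CPM in set 2 and to 100.7 CPM in SD 1. Without these 3, in an alternative added after they were seen, 6194 genes were higher and 5407 lower in set 2, against 6211 and 5488 with them.

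Small noncoding RNAs guide the modification or splicing of other RNAs or silence messages, and most of them lack the poly(A) tail by which messenger RNA is selected. Many snoRNAs and miRNAs lie in introns of protein-coding genes and are cut out of the host's primary transcript. Such a gene covers a place that the host's primary transcript also covers, and the inserts kept by size selection, from 200 to 500 bp, are longer than a mature miRNA. White fat is a mixture of adipocytes, macrophages, fibroblasts, vessels and lymphocytes, and the macrophages multiply in obese epididymal fat.

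The small RNA share was 0.00992% to 0.0165% of counts in set 2 (median 0.0139%) and 0.00319% to 0.00642% in set 1 (median 0.00467%). The lowest set 2 library, HFD 6, held 0.00992%, and the highest set 1 library, SD 2, held 0.00642%. These values chose the sets and carry no test. The gap appeared in each group: the medians were 0.0101% in set 2 and 0.00361% in set 1 of HFD, 0.0143% in set 2 and 0.00467% in set 1 of SZ-A 200, 0.0149% in set 2 and 0.00385% in set 1 of SZ-A 400, 0.0131% in set 2 and 0.00567% in set 1 of SZ-A 600, and 0.0160% in set 2 and 0.00573% in set 1 of SD. Of 5707 small RNA genes, 1770 had a count in any library, and 131 passed the filter on low counts.

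The small RNA gene with the highest level was Mir5125, a miRNA gene inside Srrm2. It had 14.2, 18.4 and 28.5 CPM in set 2 (lowest, median and highest library) and 1.54, 2.83 and 5.36 CPM in set 1, so no library of one set reached the other. Its counts are part of the share that chose the sets, so this gap is no result. CPM of small RNA genes, here and below, are scaled to the library total without TMM factors, while their fold changes use the factors. The sequences printed here are the mature miRNAs of 4 of the small RNA genes described here, printed because their lengths can be set against the size of the inserts; all come from RefSeq with GRCm38.p6 coordinates, and capitals mark the seed (bases 2 to 8). No seed was shared among them.
mmu-miR-5125: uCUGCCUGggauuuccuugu
mmu-miR-703: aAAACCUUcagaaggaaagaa
mmu-miR-7a-5p: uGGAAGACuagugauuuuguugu
mmu-miR-6392-5p: uCUGGCGCccugguccugucagc
The 4 lie at chr17:23823339-23823358 (plus strand), chr5:98475616-98475636 (minus strand), chr13:58392841-58392863 (minus strand) and chr15:84168285-84168307 (plus strand), and they are 20, 21, 23 and 23 bases long. The deposited table counts over the whole hairpin, of 79 bases for Mir5125, printed here with the mature part in capitals.
Mir5125 hairpin: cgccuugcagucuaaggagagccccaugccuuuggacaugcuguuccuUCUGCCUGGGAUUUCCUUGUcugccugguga
It lies at chr17:23823291-23823369 on the plus strand, the strand of Srrm2.

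The other small RNA genes with the highest mean level did not all follow Mir5125. A copy of 7SK on chromosome 19, named for the RNA that holds a transcription elongation factor inactive, had 1.28, 12.3 and 23.0 CPM in set 2 and 0.972, 2.96 and 15.6 CPM in set 1, with overlap. Mir145a, a miRNA gene known from smooth muscle, had 0.4655, 2.17 and 4.51 CPM in set 2 and 0.0256, 0.169 and 0.850 CPM in set 1. Against these, Mir703 was lower in set 2, at 1.24, 2.28 and 3.02 CPM, against 2.68, 3.65 and 6.07 CPM in set 1. The predicted miRNA gene ENSMUSG00002076173 was also lower in set 2, at 0.731, 1.42 and 5.47 CPM, against 2.55, 4.33 and 14.6 CPM in set 1. Mir703 and ENSMUSG00002076173 both lie inside a protein-coding gene on its opposite strand. The strand setting of the authors' counting is not given in the sources used here, so reads of overlapping genes on opposite strands cannot be told apart.

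Summed by place, small RNA genes inside a protein-coding gene on its own strand had a median of 76.5 CPM in set 2 and 18.1 CPM in set 1, a ratio of 4.23. Those outside protein-coding genes had 33.5 CPM in set 2 and 10.9 CPM in set 1, a ratio of 3.08, and those on the opposite strand had 25.7 CPM in set 2 and 13.9 CPM in set 1, a ratio of 1.85. All 5 classes of small RNA were higher in set 2 by their medians: the ratio was 2.67 for miRNA, 3.40 for snoRNA, 3.72 for snRNA, 3.50 for scaRNA and 3.26 for misc_RNA genes. The sums by place and by class are parts of the share that chose the sets, so their rise follows from the choice and is no result. The protein-coding hosts were then set beside their small RNAs. Small RNA counts chose the sets, and a gene could pass the filter on low counts through set 2 alone, so the direction of those that passed is fixed by the choice and is no result. The 78 that passed on their host's strand had a median log2 fold change (set 2 over set 1) of 1.77, and the 26 on the opposite strand 1.95. The hosts' own counts did not divide the sets, but the hosts were picked through the small RNA genes that passed. Host reads can also fall on those genes, so these hosts are not a comparison free of the choice. The 72 hosts on the same strand had a median of -0.11, with 17 higher and 34 lower in set 2. The 26 on the opposite strand had 0.05, with 8 higher and 6 lower. Over all protein-coding genes tested the median was -0.05, with 26% higher and 31.4% lower. The share of same-strand hosts called higher lies near that share.

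Named examples, chosen after their values were seen, ran in each direction. The host of Mir5125, Srrm2, which codes for a splicing protein, was itself higher in set 2 by 1.58 on the log2 scale (median 737 CPM in set 2 and 234.9 CPM in set 1), less than the 2.42 of the hairpin. Snora31, a snoRNA inside Tpt1, was higher by 1.63, although Tpt1, a very abundant message of growing cells, was lower by 1.09 (700.8 CPM in set 2 and 1455 CPM in set 1). Mir7-1 was higher by 0.62 inside Hnrnpk, which had a log2 fold change of -0.36. Mir6392 was higher by 1.73 inside Pnpla3, whose own log2 fold change of 0.24 did not pass the test (adjusted p = 0.315).

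**Figure D1:**
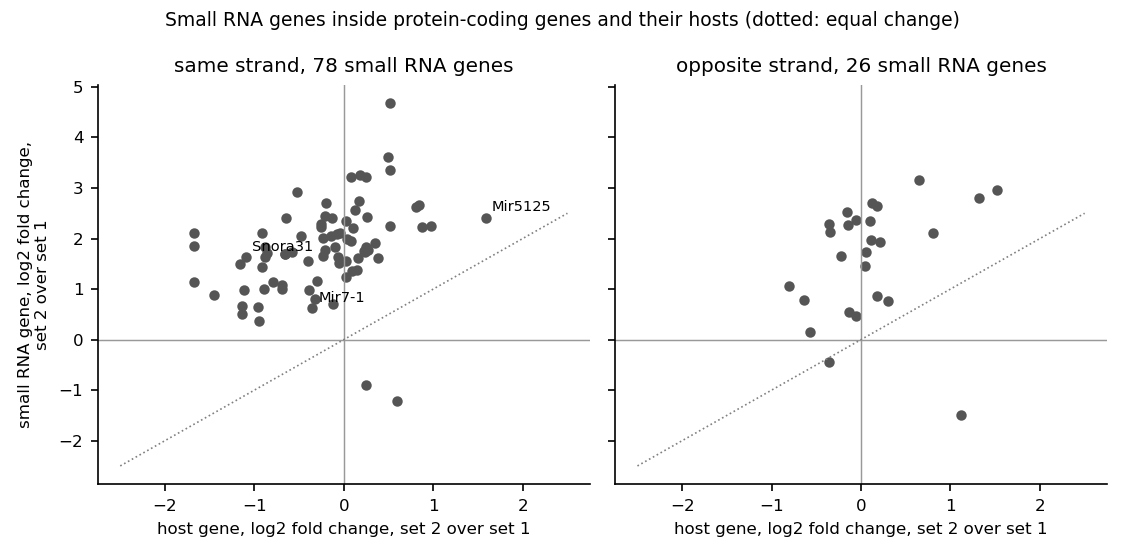
Log2 fold change (set 2 over set 1) of small RNA genes (vertical axis) against that of the protein-coding gene around them (horizontal axis), each point 1 small RNA gene. The vertical direction is fixed by the choice of the sets and of genes that passed the filter; the hosts centre on -0.11 (same strand) and 0.05 (opposite strand), with Mir5125 and Snora31 over hosts that went opposite ways.

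Beyond the small RNA share, 13 traits of the libraries were compared by permuting the set within each group 100000 times (two-sided, adjusted over the 13). The split itself was found in these libraries, so these p-values, and those for genes, say how far the sets stand apart against the spread between libraries, and are no independent evidence that the sets exist. The smallest p the permutations can give, 1e-05, becomes 1.4e-05 after adjustment. The share of counts in lncRNA genes was 0.799%, 1.02% and 1.31% in set 2 (lowest, median, highest) and 0.413%, 0.521% and 0.696% in set 1. The sets did not overlap in any of the 5 groups, and the group-adjusted difference was 0.519 percentage points (permutation test, adjusted p = 1.4e-05).

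The share of counts in ribosomal RNA genes went the other way. It was 0.0475%, 0.102% and 0.203% in set 2 and 0.257%, 0.373% and 1.15% in set 1. Every set 2 library lay below every set 1 library (difference -0.333 percentage points, permutation test, adjusted p = 1.4e-05). The most abundant of these genes was Rn18s-rs5, a gene with the sequence of the 18S RNA of the small ribosomal subunit, at 410.0, 929.8 and 1910 CPM in set 2 and 2861, 3888 and 11720 CPM in set 1 (log2 fold change -2.23 ± 0.17 SE, edgeR quasi-likelihood test, adjusted p = 1.77e-13). Of the 3 ribosomal RNA genes tested, only this 1 was lower and 2 were higher in set 2 (median log2 fold change 1.08). The ribosomal RNA share and the next pair of traits were added after the gene results were seen. TEC genes, unverified gene models that await experimental checking, took 0.0672% to 0.136% of counts in set 2 and 0.0346% to 0.0602% in set 1, and noncoding genes inside a protein-coding gene on its strand took 0.0774% to 0.130% in set 2 and 0.0600% to 0.0809% in set 1. Both were without overlap inside all 5 groups (adjusted p = 1.4e-05 each, permutation test).

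The libraries of set 2 also detected more genes. At least 1 CPM was reached by 14128, 14828 and 15316 genes in set 2 and by 13616, 14017 and 14297 genes in set 1 (difference 789.5 genes, permutation test, adjusted p = 1.4e-05), with no overlap in 4 of 5 groups. TMM factors were higher too, with medians of 1.07 in set 2 and 0.923 in set 1 (difference 0.134, permutation test, adjusted p = 1.4e-05), apart in 4 of 5 groups. The number of genes detected used CPM without these factors, so the 2 traits are not separate observations. Set 2 libraries were not deeper: their totals had a median of 36.6 M counts, against 38.3 M counts in set 1 (difference of -1.86 in the same unit, permutation test, adjusted p = 0.022). Noncoding genes on the strand opposite a protein-coding gene took 0.121%, 0.152% and 0.177% in set 2 and 0.0954%, 0.116% and 0.130% in set 1 (permutation test, adjusted p = 1.4e-05). Pseudogenes were lower, at 0.383% to 0.506% in set 2 and 0.468% to 0.636% in set 1 (permutation test, adjusted p = 1.4e-05). Protein-coding genes held a median of 98.1% in set 2 and 98.3% in set 1 (difference -0.196 percentage points, permutation test, adjusted p = 0.044), a call lost when any of 21 single libraries was left out. The genes of the mitochondrial genome (4.40% in set 2 and 3.68% in set 1, adjusted p = 0.41, permutation test) and the 50 most abundant genes (22.6% in set 2 and 21.7% in set 1, adjusted p = 0.54, permutation test) did not pass.

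**Figure D2:**
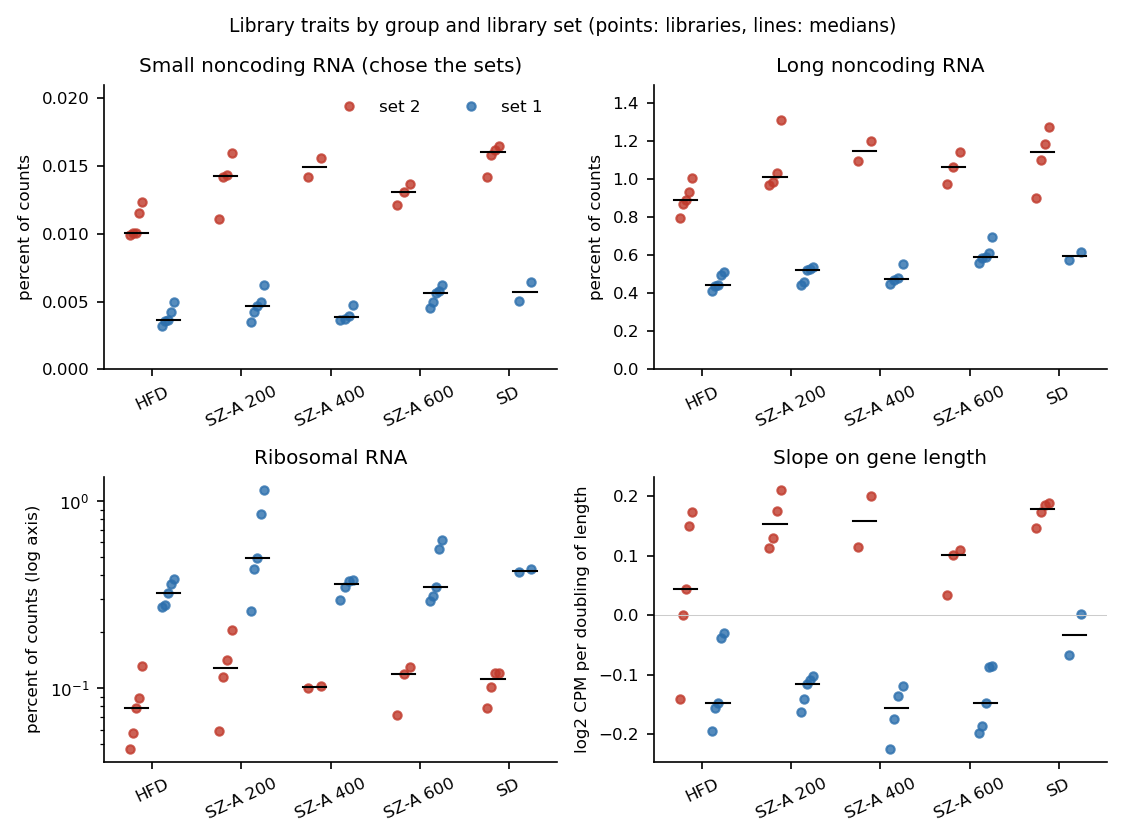
Percent of counts in small noncoding RNA, lncRNA and rRNA genes (the last on a log axis) and the slope of log2 CPM deviation per doubling of gene length, each point a library, each line a median, by group with set 2 left of set 1. The small RNA share chose the sets; lncRNA and rRNA shares do not overlap within any group, with rRNA at 0.0475% to 0.203% in set 2 and 0.257% to 1.15% in set 1.

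Gene by gene, 57.6% of 20314 tested genes differed between the sets with group as a term (edgeR quasi-likelihood test, adjusted p under 0.05 over all tested genes): 6211 were higher in set 2 (30.6%) and 5488 lower (27%). At least 2-fold differences were unequally shared, with 2748 genes higher (13.5%) and 612 lower (3.01%). In all 5 groups, 601 genes (2.96%) had every set 2 library above every set 1 library, and 484 (2.38%) had every one below. Of the 11699 genes called, 9747 had the same direction in all 5 groups. After group differences had been removed, the first principal component of the 1000 most variable genes other than small RNA, with 31% of the variance, ran from -5.32 to 47.5 in set 2 and from -43.9 to 5.12 in set 1.

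Within single groups the calls were 3671 higher and 3058 lower in HFD (18.1% and 15.1%), 3320 and 2942 in SZ-A 200 (16.3% and 14.5%), 2909 and 2793 in SZ-A 400 (14.3% and 13.7%), 1489 and 1536 in SZ-A 600 (7.33% and 7.56%), and 1147 and 1572 in SD (5.65% and 7.74%). The smaller counts came with unequal numbers of libraries and were not tested against each other as counts. They also rested on single libraries: the count in both directions together ran from 3259 to 6666 in SZ-A 400 (lowest without SZ-A 400 7), from 1605 to 3726 in SZ-A 600 (lowest without SZ-A 600 9) and from 818 to 3377 in SD (lowest without SD 1) as single libraries were left out with limma, in which a lone library was assumed to vary like the others. The count was also 3556 in SZ-A 400 without SZ-A 400 8 and 1733 in SD without SD 2. The interaction of group and set, which asks of each gene whether the set difference varies between groups, called 0 genes (0% of 20314, edgeR quasi-likelihood test, lowest adjusted p = 0.391). There were 1948 genes with a raw p below 0.05, where 1015.7 would be expected by chance. With limma the interaction called between 0 and 3 genes as single libraries were left out, and with all 43 libraries edgeR called 11.

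The set difference followed gene length. Protein-coding genes (3961 higher, 26%, and 4780 lower, 31.4%, of 15236) were grouped by the length the deposited table gives. In genes under 500 bases the median log2 fold change was -0.78, with 7.89% higher and 57.9% lower in set 2, though that class held only 38 genes. From 1000 to 2000 bases the median was -0.41 over 1787 genes, from 4000 to 6000 bases it was -0.02, and at 12000 bases and over it was 0.33 over 840 genes, with 59.3% higher and 6.07% lower. Each class had a higher median than the class below it. Over the 15236 genes, which are not independent, Spearman's rho was 0.338 with gene length, 0.146 with the intronic rest of the gene's span, 0.052 with GC and -0.23 with mean level. Split by length and GC together, short genes had medians of -0.28 (low GC) and -0.19 (high GC), and long genes 0.05 (low GC) and 0.18 (high GC).

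Taken per library, the slope of log2 CPM deviation on each doubling of gene length was -0.141, 0.138 and 0.210 in set 2 and -0.224, -0.136 and 0.00137 in set 1 (12904 protein-coding genes). The difference was 0.231 (permutation test, adjusted p = 1.4e-05). The sets overlapped only in HFD, where library 8 of set 2 had the slope of -0.141.

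**Figure D3:**
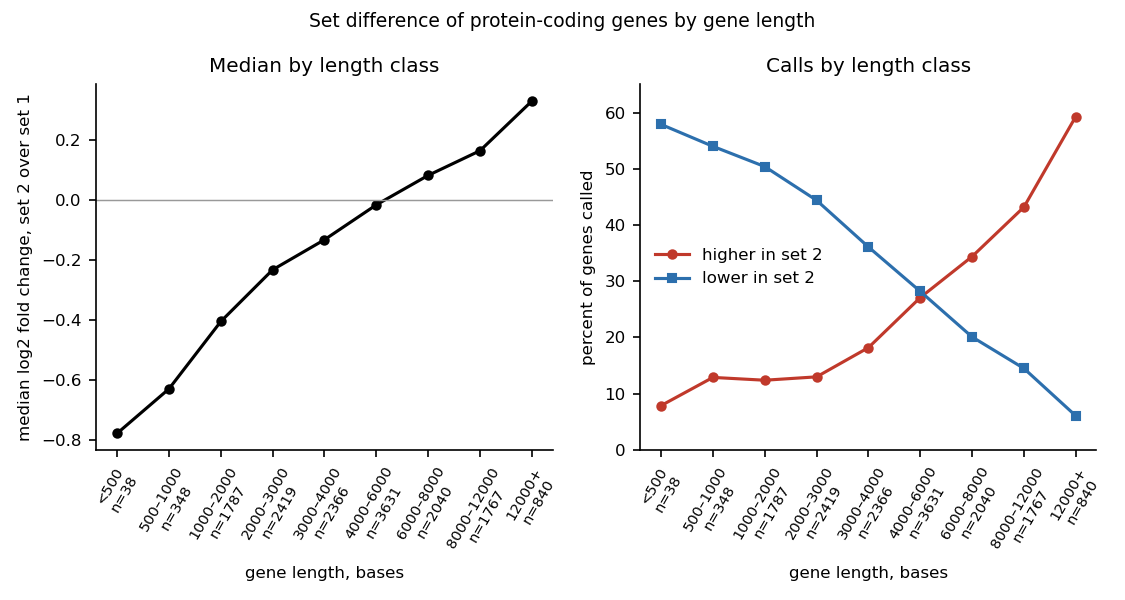
Left, median log2 fold change (set 2 over set 1) of protein-coding genes by length class. Right, percent of each class called higher or lower in set 2: calls higher go from 7.89% under 500 bases to 59.3% at 12000 bases and over, and calls lower from 57.9% to 6.07%.

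Noncoding genes departed from that order: lncRNA genes are shorter than protein-coding genes and were more often higher than lower. Of 2743 tested lncRNA genes, 1363 were higher in set 2 (49.7%) and 145 lower (5.29%), with a median log2 fold change of 0.66 and a median length of 1737 bases. Of 752 TEC genes, 566 were higher (75.3%) and 5 lower. The medians differed by place, a difference that was not tested. The lncRNA genes inside a protein-coding gene had medians of 1.498 (same strand, 94 of 123 higher) and 1.42 (opposite strand, 333 of 515 higher), against 0.46 outside (495 of 1284 higher). TEC genes on their host's strand had a median of 2.04, with 340 of 377 higher, against 0.93 outside. Processed pseudogenes, which are spliced copies of messages, were lower in 540 of 1252 cases and higher in 234 (median -0.37). Outside protein-coding genes 405 of 840 were lower. Processed pseudogenes of ribosomal proteins share near-identical sequence with their parents, so their counts are uncertain.

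The largest rises in set 2 among protein-coding genes with the same direction in all groups were genes at low or moderate level. Col7a1, the collagen of anchoring fibrils, had 1.31, 5.34 and 57 CPM in set 2 and 0.140, 0.700 and 1.31 CPM in set 1 (log2 fold change 3.69 ± 0.42 SE, edgeR quasi-likelihood test, adjusted p = 2.86e-09). Gpr17, an orphan receptor best known from oligodendrocyte precursors, had 7.47, 23.1 and 38.0 CPM in set 2 and 0.448, 1.88 and 7.64 CPM in set 1 (3.14 ± 0.27 SE, adjusted p = 2.75e-12). Neither overlapped in any group. Ctcfl, a germ-line relative of the insulator protein CTCF, had 10.6, 40.4 and 80.2 CPM in set 2 and 1.75, 4.74 and 15.3 CPM in set 1 (2.59). It overlapped in 1 group.

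The most evenly separated of these was Leng8, a nuclear factor of messenger RNA handling, at 320.0, 425.9 and 523.0 CPM in set 2 and 46.6, 85.5 and 158.0 CPM in set 1. Its log2 fold change of 2.25 ± 0.11 SE was the most significant among the 10 named rises (edgeR quasi-likelihood test, adjusted p = 2.2e-17). Snhg11, listed as protein-coding here, had 49.6, 183.1 and 291.6 CPM in set 2 and 12.0, 25.5 and 90.2 CPM in set 1 (2.28). The other 5 were St6galnac2 (2.48), a sialyltransferase, Vsig2 (2.33), Coro6 (2.19), a coronin of the actin cytoskeleton, Catsperg1 (2.19), a part of the sperm calcium channel, and Nrgn (2.16), a calmodulin-binding protein of neurons.

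The largest falls were short messages of translation and respiration, with 3 genes of inflammation or macrophages among them. Sec61g, a subunit of the channel through which proteins enter the endoplasmic reticulum, had 3.92, 7.69 and 19.0 CPM in set 2 and 21.1, 35.5 and 47.5 CPM in set 1 (log2 fold change -2.09 ± 0.12 SE, edgeR quasi-likelihood test, adjusted p = 2.33e-16). Rpl41, the smallest ribosomal protein, had 109.4, 161.8 and 279.7 CPM in set 2 and 415.9, 717.5 and 1049 CPM in set 1 (-1.99 ± 0.12 SE, adjusted p = 1.7e-15). Atp5e, the epsilon subunit of ATP synthase, had 18.3, 31.8 and 68.7 CPM in set 2 and 94.0, 138.3 and 153.5 CPM in set 1 (-1.89 ± 0.13 SE, adjusted p = 1.2e-14). None of these 3 overlapped in any group. Rps12 (-1.86), Rpl34 (-1.74), Rps27l (-1.74) and Rpl35 (-1.74), ribosomal protein or closely related genes, were likewise without overlap.

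The remaining 3 named falls spread far more widely between libraries. Ubd, a ubiquitin-like protein induced in inflammation, had 2.91, 9.61 and 116.9 CPM in set 2 and 6.19, 167.0 and 229.6 CPM in set 1 (-1.97 ± 0.44 SE, adjusted p = 2.26e-04, edgeR quasi-likelihood test), with overlap in 2 of 5 groups. Arg1, the arginase of alternatively activated macrophages, had 0.167, 0.755 and 3.11 CPM in set 2 and 0.466, 2.41 and 38.1 CPM in set 1 (-1.91). Il1rn, the interleukin 1 receptor antagonist, had 0.261, 8.43 and 73.0 CPM in set 2 and 2.34, 59.9 and 223.4 CPM in set 1 (-1.74, adjusted p = 0.00342), and its sets were apart in only 1 group.

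Ribosomal proteins as a class were lower in set 2. Of 82 cytosolic ribosomal protein genes tested, 78 fell and 2 rose, with a median log2 fold change of -1.07, against 0.03 over all 20314 genes. Their summed level was 8890, 13130 and 18790 CPM in set 2 and 20360, 28440 and 38080 CPM in set 1. No set 2 library reached the lowest of set 1. The 2 members that rose, Rpl24 (0.72) and Rps10 (0.73), named after their values were seen, stood at medians of 0.577 and 1.59 CPM in set 2 and 0.308 and 0.916 CPM in set 1. The other members were far more abundant as a class, as the sums show. Rpl39l and Rpl3l, the paralogs of testis and muscle, were not called.

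The nuclear genes of the respiratory chain, which supply its subunits to mitochondria, moved with them. 35 of 37 fell and none rose, with a median of -0.79, and the sum was 3200, 4627 and 6414 CPM in set 2 and 5167, 6764 and 9173 CPM in set 1, apart in 4 of 5 groups. Atp5l (-1.47), Uqcrh (-1.31) and Ndufb1 (-1.56) led after Atp5e, and Ndufb2 and Sdha were not called. The subunits encoded by the mitochondrial genome were not called in either direction: 0 of 13 passed, with a median of 0.07. mt-Co1, the core subunit of cytochrome oxidase, had 7289, 17050 and 43730 CPM in set 2 and 8333, 16460 and 33230 CPM in set 1 (0.08 ± 0.20 SE, edgeR quasi-likelihood test, adjusted p = 0.757), and its sign turned under some alternatives.

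Nuclear RNA moved the other way. Of 11 nuclear-retained lncRNAs tested, 9 rose and none fell (median 1.72), and their sum was 2670, 3615 and 5051 CPM in set 2 and 779.5, 1245 and 2258 CPM in set 1, with every set 2 library above every set 1 library. Neat1, the scaffold of paraspeckles, had 1201, 2268 and 3302 CPM in set 2 and 319.4, 591.9 and 1141 CPM in set 1 (1.98 ± 0.13 SE, edgeR quasi-likelihood test, adjusted p = 1.2e-14). Malat1, an abundant RNA of nuclear speckles, had 415.3, 791.4 and 1145 CPM in set 2 and 110.7, 244.5 and 641.3 CPM in set 1 (1.53 ± 0.17 SE, adjusted p = 1.18e-09), overlapping in 1 group. Firre (1.72), Meg3 (1.76) and Kcnq1ot1 (1.97) rose without overlap in any group. Norad, a lncRNA known to reside largely in the cytoplasm, had a log2 fold change of -0.12 and, with Mir99ahg, was not called.

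Genes with very long transcripts rose as well, 19 of 24 with none lower (median 0.46). Kmt2d, a histone methyltransferase, had 145.1, 185.1 and 232.8 CPM in set 2 and 33.6, 67.1 and 110.5 CPM in set 1 (1.39 ± 0.09 SE, edgeR quasi-likelihood test, adjusted p = 6.58e-15). Kmt2a (1.20), the ubiquitin ligase Huwe1 (0.79) and the nuclear envelope protein Syne2 (0.79) were the next named. Genes that host snoRNAs in their introns were divided, with 5 of 15 higher, such as Snhg17 (1.31), and 6 lower, such as Cct6a (-0.47) and Snhg6 (-0.58). Replication-dependent histone genes, whose messages end in a stem loop instead of a poly(A) tail, were 2 higher and 7 lower of 29 (median -0.10). Among the lower were H2bc4 (-0.83) and H1f2 (-0.63). Their sum had a median of 212.1 CPM in set 2 and 349 CPM in set 1, apart in 4 of 5 groups. Over all tested genes 30.6% were higher and 27% lower. The snoRNA hosts called higher and the histone genes called lower lie near these shares.

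Xist, the RNA that coats the inactive X chromosome of females, was counted in these male libraries. It had 0.0511, 2.86 and 53.8 CPM in set 2 and 0, 0 and 1.11 CPM in set 1, and the sets were apart in 3 of 5 groups. The fitted log2 fold change was 6.98 ± 0.79 SE (edgeR quasi-likelihood test, adjusted p = 2.01e-09) and depends on the prior count, since most set 1 libraries had none. In HFD the set 2 libraries had 0.720 to 53.8 CPM against 0 to 0.110 CPM in set 1. The Y-linked genes were present in every library, with Kdm5d, a histone demethylase, at 26.8, 37.5 and 49.4 CPM in set 2 and 17.7, 22.9 and 30.4 CPM in set 1 (0.66 ± 0.06 SE, adjusted p = 2.18e-11), Uty at 0.10 (adjusted p = 0.179) and Ddx3y, named after its value was seen, at 0.06 (adjusted p = 0.447). The source of the Xist reads was not tested. Among other noncoding genes Fendrr, a lncRNA of lateral mesoderm, had 0.136, 0.831 and 9.39 CPM in set 2 and 0, 0.0327 and 0.172 CPM in set 1 (4.86), and Tmcc3os, antisense to Tmcc3, was at 3.40.

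The sums of cell type markers overlapped between the sets in at least 3 of 5 groups for each list. The counts of each list are to be read beside the shares over all tested genes, 30.6% higher and 27% lower in set 2. In bulk tissue, fewer cells of a type and less RNA per cell cannot be told apart. Of 18 macrophage markers, 14 fell in set 2 and 1 rose (median -1.02). Their sum was 659.4, 1812 and 11140 CPM in set 2 and 1246, 7658 and 13800 CPM in set 1, and the sets were apart in only 2 groups. By group the median sums were 3701 CPM in set 2 and 13750 CPM in set 1 of HFD, 4262 CPM in set 2 and 7658 CPM in set 1 of SZ-A 200, 1778 CPM in set 2 and 8340 CPM in set 1 of SZ-A 400, 2383 CPM in set 2 and 3185 CPM in set 1 of SZ-A 600, and 672.0 CPM in set 2 and 1270 CPM in set 1 of SD. Set 2 was thus lower at the median in each group, while the ranges overlapped in all 3 SZ-A groups.

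Tyrobp, a signalling adaptor of myeloid cells, had 8.32, 40.3 and 244.9 CPM in set 2 and 29.1, 272.9 and 495.7 CPM in set 1 (-1.62 ± 0.33 SE, edgeR quasi-likelihood test, adjusted p = 6.1e-05). Adgre1, the F4/80 antigen, had 8.04, 69.2 and 477.2 CPM in set 2 and 34.3, 356.1 and 796.7 CPM in set 1 (-1.004 ± 0.38 SE, adjusted p = 0.0216). Fcgr3 (-1.21), an Fc receptor, and the complement genes C1qa (-1.04) and C1qc (-1.04) fell too, and the 1 riser was Mertk (0.26), a receptor for dying cells, named after its value was seen. Of 14 markers of lipid-associated macrophages, 11 fell and none rose (median -1.15), among them Ctsl (-1.18), Cd9 (-1.12), Cd63 (-1.07) and Fabp5 (-1.01). Of 13 markers of resident macrophages, 7 fell (median -0.60), with Folr2 (-1.12) and Clec10a (-0.49) among them.

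**Figure D4:**
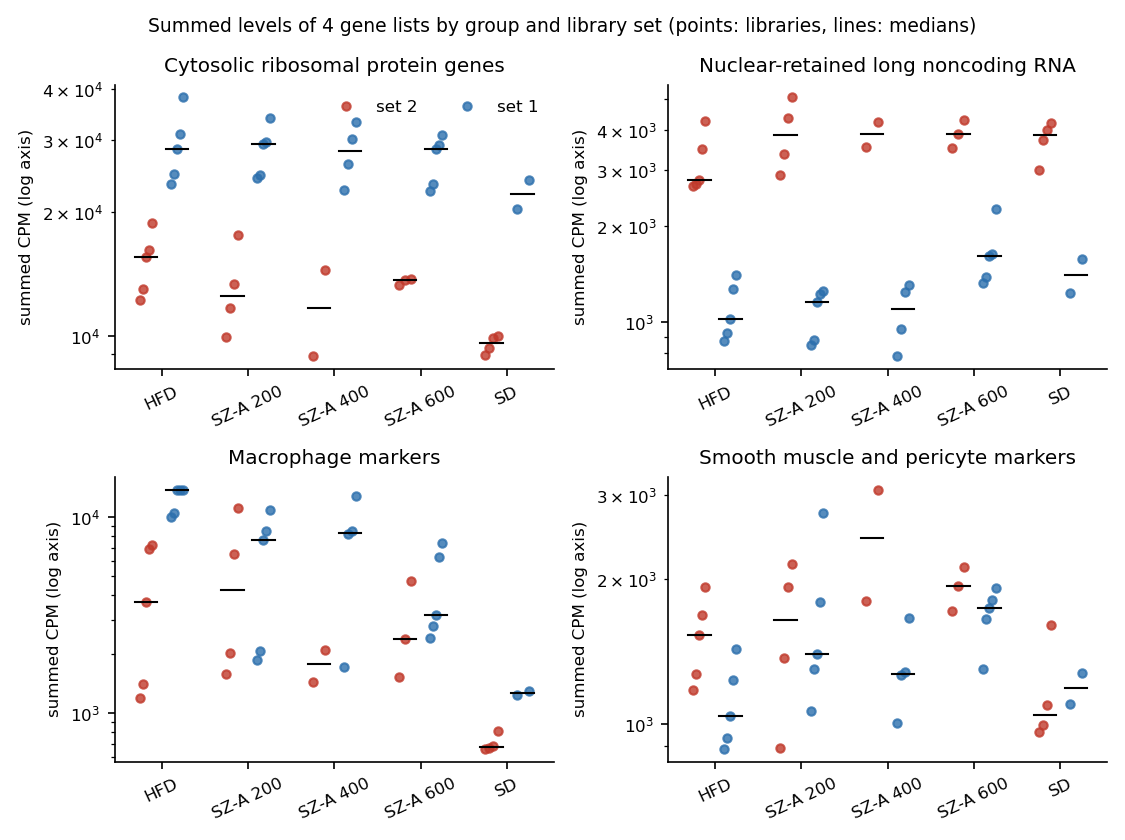
Summed CPM (log axis) of 4 gene lists in each library, by group with set 2 left of set 1; lines are medians. Ribosomal protein genes (8890 to 18790 CPM in set 2 and 20360 to 38080 CPM in set 1) and nuclear lncRNAs separate the sets in all 5 groups, macrophage markers overlap in the 3 SZ-A groups, and smooth muscle markers overlap in 4 groups.

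Fibroblast and preadipocyte markers fell in 11 of 18 cases and rose in 2, Dlk1 and Pdgfrb (median -0.45). Dcn, the matrix proteoglycan decorin, had 322.5, 546.4 and 1169 CPM in set 2 and 721.8, 1207 and 1569 CPM in set 1 (-0.95 ± 0.13 SE, edgeR quasi-likelihood test, adjusted p = 6.41e-08). Mfap5 (-1.06), of elastic microfibrils, and Cd34 (-0.60), a progenitor surface protein, fell too. Pdgfra, the receptor that defines these progenitors, had 30.0, 58.5 and 190.5 CPM in set 2 and 43.5, 86.9 and 139.2 CPM in set 1 and did not pass (-0.22, adjusted p = 0.281). Of 20 proliferation genes 6 were lower (median -0.54), a share near the 27% over all genes, among them the cell cycle kinase Cdk1 (-1.08) and the replication clamp Pcna (-0.93), and of 14 mesothelial markers 5 fell (median -0.90), a count of 1 with all 43 libraries or without the SD group.

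Mural cell and vascular endothelial markers had positive medians, and the sign of the lymphatic median depended on the libraries used. 9 of 13 smooth muscle and pericyte markers rose and none fell (median 0.60). Their sum was 890.3, 1647 and 3071 CPM in set 2 and 887.7, 1299 and 2740 CPM in set 1, and only 1 group was without overlap. Notch3, the Notch receptor of mural cells, had 67.1, 126.9 and 301.8 CPM in set 2 and 32.6, 64.5 and 89.7 CPM in set 1 (1.16 ± 0.13 SE, edgeR quasi-likelihood test, adjusted p = 8.83e-10). Myh11 (1.42), the smooth muscle myosin, Lmod1 (0.91) and the potassium channel subunit Abcc9 (0.70) rose too, but Acta2, smooth muscle actin, had -0.06. Of 18 endothelial markers 8 rose and none fell (median 0.22), with Robo4 (0.87), Egfl7 (0.69) and Eng (0.52) named, and 3 rose with all 43 libraries. Pecam1, the defining adhesion protein, had 180.9, 255.1 and 420.6 CPM in set 2 and 170.7, 273.5 and 410.2 CPM in set 1 (0.02 ± 0.11 SE, adjusted p = 0.867). Of 7 lymphatic endothelial markers 1 was higher and 1 lower (median -0.54), and in 2 groups the summed level of every set 2 library lay below that of set 1. The lymphatic median was 0.4 with all 43 libraries and -0.007 without the SD group.

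Adipocyte markers were divided, with 3 of 22 higher, 6 lower and a median of -0.01. Lep, the hormone leptin, had 204.8, 1067 and 1820 CPM in set 2 and 471.4, 2010 and 2741 CPM in set 1 (-0.82 ± 0.18 SE, edgeR quasi-likelihood test, adjusted p = 1.62e-04). Adipoq, the hormone adiponectin, had 735.9, 2518 and 4569 CPM in set 2 and 925.7, 3461 and 5386 CPM in set 1 and did not pass (-0.36, adjusted p = 0.163). The fatty acid transporter Cd36 (-0.46) and the glycerol enzyme Gpd1 (-0.56) fell, while the lipogenic factor Mlxipl (1.41) and the activin receptor Acvr1c (1.01) rose. When the list was divided at the median gene length of all protein-coding genes, the 14 shorter members gave 0 higher and 5 lower (median -0.21) and the 8 longer ones 3 higher and 1 lower (median 0.19). The same division left like medians in some lists, at -0.52 (shorter) and -0.44 (longer) for fibroblast markers, 0.60 and 0.62 for smooth muscle markers and 0.17 and 0.15 for clock genes. It gave -1.23 and -1.09 for lipid-associated macrophage markers and 1.205 and 1.58 for B cell markers. Medians lay farther apart for macrophage markers (-1.04 and -0.54), interferon genes (-0.205 and 0.34) and immediate early genes (0.33 and 1.24). The same held for T cell markers (0.36 and 1.05) and endothelial markers (0.15 and 0.39). Of 12 brown and beige genes, 4 rose and 4 fell. Cox7a1 (-1.15), Cox8b (-0.87) and Elovl3 (-2.13) fell and Cpt1b (2.35) rose, at median levels of 1.36, 4.70, 0.0943 and 0.452 CPM in set 2 and 3.77, 8.59, 0.437 and 0.0594 CPM in set 1, and Ucp1, the uncoupling protein, had -0.19 and was not called.

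Lymphocyte counts rested on a pair of libraries. With all 39 libraries 7 of 12 B cell markers rose (median 1.22). Summed B cell markers reached 7274 CPM in SZ-A 200 8 and 2151 CPM in HFD 7, both of set 2. A set 1 library of HFD reached 2466 CPM. The median sum was 247.2 CPM in set 2 and 383.8 CPM in set 1, and set 2 had the higher median in only 1 of 5 groups. An alternative without SZ-A 200 8 and HFD 7 was chosen after their sums were seen and kept that set 1 library. In it 0 rose and 2 fell (median 0.02). For T cell markers the counts were 3 higher and 0 lower of 16 with all libraries and 2 and 2 without both. For plasma cell markers they were 2 and 2 of 12, and 1 and 3 of 11. Blood markers were lower in 2 of 8 cases, below the 27% over all genes, with Hbb-bs, a beta-globin, at 53.2, 141.8 and 385.9 CPM in set 2 and 80.3, 361.1 and 1385 CPM in set 1 (-1.25), whereas the alpha-globin Hba-a1 was at -0.23 (adjusted p = 0.599, edgeR quasi-likelihood test).

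Lists of tissue state were counted in the same way. Of 19 clock genes 8 rose and none fell (median 0.15): Per3 had 35.3, 80.9 and 148.4 CPM in set 2 and 14.5, 28.6 and 68.7 CPM in set 1 (1.33 ± 0.13 SE, edgeR quasi-likelihood test, adjusted p = 3.97e-11), and Ciart (1.49), Per1 (1.07) and Tef (0.40) followed, while Dbp had -0.31 (adjusted p = 0.0834). Of 23 immediate early genes, which respond within minutes to stimulation or handling, 13 rose and none fell (median 0.37), among them Fosb (1.49), Nr4a2 (1.22), Zfp36 (0.77) and Klf2 (0.51), though Fos had 0.29 and did not pass (adjusted p = 0.28). The time of day at which tissue was taken is not given in the sources used here, and its part was not tested.

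Chaperones and stress genes of the endoplasmic reticulum fell in 14 of 20 cases and rose in none (median -0.37). Pdia6, a protein disulfide isomerase, had 111.0, 157.5 and 219.0 CPM in set 2 and 161.3, 228.1 and 306.5 CPM in set 1 (-0.47 ± 0.05 SE, edgeR quasi-likelihood test, adjusted p = 3.81e-10), without overlap in any group, and Manf (-0.64) and Dnajb9 (-0.50) fell with it. Of 20 cholesterol synthesis genes 14 fell and 2 rose (median -0.35), with Nsdhl (-0.62), Cyp51 (-0.58) and Mvk (-0.54) named. Of 16 glycolysis and hypoxia genes 6 were lower, such as Ldha (-0.73) and Pgk1 (-0.70), and 1, Vegfa, was higher (1.29), so fewer were called than the 57.6% over all genes. Interferon genes were divided by count, 6 higher and 5 lower of 21, but their sum was lower in set 2. It was 383.6, 594.8 and 1314 CPM in set 2 and 925.4, 1177 and 1632 CPM in set 1, apart in 4 of 5 groups. The short gene Ifi27l2a had 87.9, 229.6 and 627.1 CPM in set 2 and 455.1, 821.1 and 1305 CPM in set 1 (-1.62). By contrast, Oas2 (1.44) and Stat2 (0.78) rose.

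2 further fits set RNA traits beside tissue makeup. In the first, a smooth offset on gene length was taken out of every library. It left 78 of 82 ribosomal protein genes and 35 of 37 respiratory chain genes lower, 7 of 11 nuclear lncRNAs higher with 1 lower (median 1.36), 14 of 18 macrophage markers lower (median -0.94) and 9 of 13 smooth muscle markers higher. The giant transcripts lost most of their difference, as the offset is built to do, with 7 higher and 4 lower of 24 (median 0.08). In all it called 5425 genes higher and 6092 lower, and shared 90% of the original calls.

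In the second, the mean log2 CPM of the adipocyte and of the macrophage markers entered as covariates, and 3662 genes were higher and 3142 lower, with 52.3% of the original calls shared. Ribosomal protein genes were still lower in 73 of 82 cases (median -0.76), respiratory chain genes in 34 of 37 (median -0.55), and nuclear lncRNAs higher in 8 of 11 (median 1.33). Macrophage markers were 2 higher and 1 lower by construction, and some lists shrank with them: lipid-associated macrophage genes to 1 of 14 lower, cholesterol synthesis genes to 3 of 20 lower and smooth muscle markers to 2 of 13 higher with 1 lower. Other medians did not shrink: with the covariates the median was -0.64 for resident macrophages (3 of 13 lower), 1.95 for B cells, 1.17 for T cells and 0.84 for immediate early genes. Endothelial markers gave 1 higher and 1 lower, with the median turning to -0.09. A covariate measured in the same libraries can also take up set differences that are not of tissue makeup, so the fits describe what goes with which measure and do not divide the difference into parts.

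**Figure D5:**
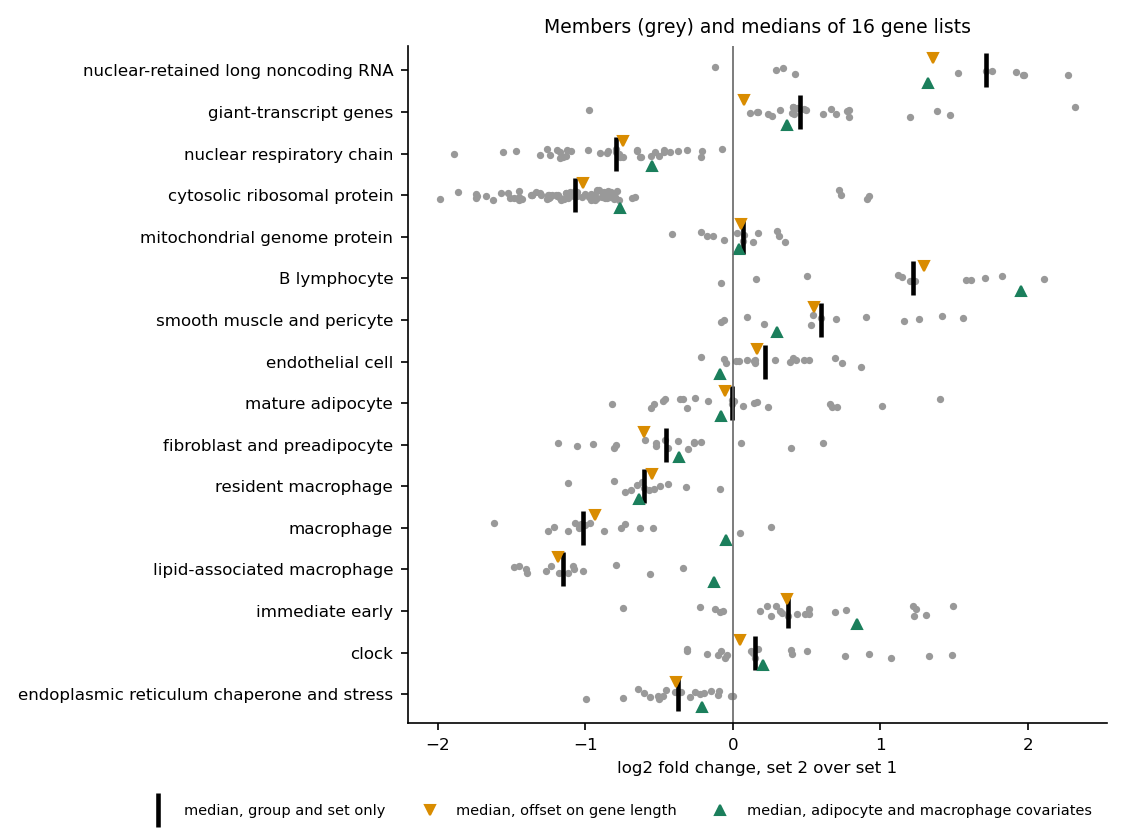
Log2 fold change (set 2 over set 1) of the members of 16 gene lists (grey points) with the median from the fit with group and set, with an offset on gene length, and with adipocyte and macrophage levels as covariates. Ribosomal protein genes stay at medians of -1.07 and -0.76 in the first and last of these, nuclear lncRNAs at 1.72 and 1.33, whereas with the covariates the macrophage (-0.05) and lipid-associated macrophage (-0.13) lists lie near 0 and the resident macrophage list at -0.64.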

How the data were processed

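The authors deposited read counts per gene with a gene length, per the file headers, and the counts of 56748 genes were used as deposited. Deposited FPKM (per the file headers) entered alternatives alone, as log2(FPKM + 1) or log2(FPKM + 0.1). Reads were 150 bp pairs, per the labels. The submitters' processing notes name mm10, but the deposited coordinates differ from GRCm38 by up to 218974 bases at the hairpins shown, so sequences were matched by symbol to RefSeq, GRCm38.p6; the sources used here name no aligner or counter.

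Libraries were assigned to sets by their numbers in the labels, with 4 left out. filterByExpr kept 20445 genes; 131 small RNA genes were described and not tested, since they chose the sets. Set 2 was compared with set 1 in edgeR 4.0.16 (TMM, robust quasi-likelihood F test, group as a term) in R 4.3.3. Adjustment was by Benjamini-Hochberg over 20314 genes. CPM of tested genes and of lists are normalised with TMM factors. CPM of small RNA genes, the number of genes with at least 1 CPM and the length slope use the library total alone. Levels are not per length, so genes are compared with themselves. limma 3.58.1 and DESeq2 1.42.0 served for alternatives. On data simulated with 19853 genes the test recovered 67.2% of 1.5-fold, 88.1% of 2-fold and 100% of 4-fold changes, and called 11 other genes. The simulation changed 67, 67 and 66 genes by these folds, all with a mean of at least 1 CPM, and gave the others no set difference. In the real data 57.6% of genes were called, so these rates need not carry over.

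The sets, lists and named genes were chosen with earlier results of these data known. Genes named by rule were called protein-coding genes with a symbol, at least 5 CPM in the higher set and 1 direction in all 5 groups (the 10 largest each way), 5 each way of other biotypes at 1 CPM or more, up to 4 members of each list with the smallest p, 11 fixed genes and the 5 small RNA genes with the highest mean. p-values set the difference between the sets against the spread between libraries. Same-numbered libraries of different groups did not pair: of 64 such pairs, 18 had deviations correlated over 0.1 (median -0.02). A smooth (lowess, span 0.3) of each library's deviation on log2 gene length gave the length offset.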

Additional observations from a re-analysis of the deposited data

Results flagged for a closer look

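Within each group and set of 4 or 5 libraries, 20 of 266 values had a library apart from the others by Dixon's gap, and chance alone flags about 1 in 20 (13.3 here).

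SZ-A 400 1, of set 1, was apart in 5 measures among the 4 set 1 libraries of its group. The 50 most abundant genes held 29.1% of its counts, against 20.8% to 21.7% in the others. The mitochondrial share was 6.10%, against 3.37% to 3.68%, and mitochondrial protein genes summed to 66640 CPM, against 35330 to 37160 CPM. Protein-coding genes held 98.33% of its counts (98.41% to 98.42% in the others), and clock genes summed to 934.9 CPM (697.7 to 726.9 CPM).

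HFD 8, of set 2, was apart in 3. Its mitochondrial share was 11.4% (1.92% to 4.51% in the other 4), its mitochondrial protein genes summed to 122900 CPM (16520 to 43390 CPM), and its interferon genes to 1314 CPM (458.0 to 702.0 CPM). Without it the set difference of the mitochondrial share was 0.136 percentage points, against 0.602 with it.

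The lymphocyte markers flagged a pair of set 2 libraries. In SZ-A 200 8 the B cell markers summed to 7274 CPM (143.2 to 323.7 CPM in the others) and the T cell markers to 205.7 CPM (12.5 to 25.2 CPM). In HFD 7 they summed to 2151 CPM (231.8 to 787.6 CPM) and 132.6 CPM (16.0 to 38.8 CPM).

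The other flags were single. SZ-A 200 6 (set 2) had 430.7 CPM of erythroid genes (210.3 to 238.1 CPM in the others), and SD 5 (set 2) had 1221 CPM (559.2 to 623.0 CPM). SZ-A 200 9 (set 2) had 4598 CPM of respiratory chain genes (3777 to 3904 CPM). SD 6 (set 2) had 809.0 CPM of macrophage markers (659.4 to 678.2 CPM), and SD 7 (set 2) had 6513 CPM of giant-transcript genes (7350 to 7454 CPM). SZ-A 600 2 (set 1) had 0.112% of counts in noncoding genes opposite a protein-coding gene (0.128% to 0.130%), and SZ-A 600 1 (set 1) had 5628 CPM of fibroblast markers (3127 to 3575 CPM). HFD 4 (set 1) had 5285 CPM of endoplasmic reticulum chaperone genes (4113 to 4398 CPM).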

How the results depend on the processing

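The counts of genes called stayed within 1.5 times of 6211 higher and 5488 lower under other normalisations, tests, filters, FPKM values and all 43 libraries, and under leaving out single libraries (6011 to 6514 higher, 5137 to 5726 lower). With the replicate block 595 were higher and 519 lower, with 10 list members higher and 73 lower; only numbers 3 and 5 occur in both sets, through SD, so the block takes up most of the set difference. With adipocyte and macrophage levels as covariates 3662 were higher and 3142 lower (161 list members lower), and at least 1.5-fold 4088 and 2291. Among called genes 53.1% were higher, 47.1% with the length offset and 61.1% with upper-quartile factors, which moved the median of all genes to 0.11. Within SZ-A 600, 4808 genes were called with all 43 libraries, against 3025 with 39, and the interaction then called 11. Leaving out single libraries gave 3259 to 6666 within SZ-A 400 (lowest without SZ-A 400 7), 1605 to 3726 within SZ-A 600 (lowest without SZ-A 600 9), 818 to 3377 within SD (lowest without SD 1), and 0 to 3 for the interaction; a lone library in an arm was assumed to vary like the rest. The protein-coding share ran from -0.225 to -0.125, and without the SD group the library total (difference -1.75 M counts) and that share (-0.212) no longer passed.

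Signs turned for some values near 0. Pecam1 was at -0.078 (length offset), -0.028 (length and GC), -0.35 (covariates), -0.08 (all 43), -0.018 (replicate block) and -0.03 to 0.081 (single libraries out). mt-Co1 was at -0.035 (limma), -0.055 (all 43), -0.41 (replicate block), -0.051 (without SZ-A 200 8, HFD 8 and SD 1) and -0.07 to 0.14 (lowest without HFD 8). Values farther from 0 turned beside small ones. Under the replicate block Foxp3 was at -0.69 (1.45 without it), Hba-a1 at 0.13 and Dbp at 0.082, and the medians of the T cell (-0.78, against 0.39), endothelial (-0.042) and erythroid (0.034) lists turned. With the covariates the medians of the brown (0.32, against -0.29), endothelial (-0.085) and proliferation (0.18, against -0.54) lists did. With all 43 libraries the medians of the lymphatic endothelial (0.4, against -0.535) and ciliated epithelium (2.105, against -0.472) lists turned, among others. The cause was not tested. Cells of 2 to 5 libraries limit the comparisons within groups.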

Other observations

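The counts of some lists not described above come from the same fit, in which 30.6% of all genes were higher and 27% lower in set 2. Of 12 Schwann cell and nerve markers 5 were higher and 2 lower in set 2 (median log2 fold change 0.34), though their sum had a median of 395.5 CPM in set 2 and 450.9 CPM in set 1, and with adipocyte and macrophage levels as covariates 0 were higher and 1 lower. Heat shock genes gave 1 higher and 5 lower of 12, with the mitochondrial chaperonin Hspe1 at -1.01 and the constitutive chaperone Hspa8 at -0.60. Of 37 extracellular matrix genes 5 were higher and 8 lower (median -0.32), smaller shares than over all genes, with the collagen-binding Sparc at -0.71 and the cross-linking enzyme Lox at -0.64, and 19 were lower with the length offset. S100a8, an alarmin of neutrophils, was at 0.161, 1.06 and 6.16 CPM in set 2 and 0.975, 5.80 and 15.9 CPM in set 1 (-2.47), while the other 5 neutrophil genes tested were not called. Of 6 genes that vary between C57BL/6 substrains, Wdfy1 was higher (0.86, without overlap in any group) and Nnt was not called (0.53, adjusted p = 0.174, edgeR quasi-likelihood test).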
